A study of Mus musculus with 6 samples.

Results

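Genes that make cholesterol and fatty acids, with the genes that control them, were compared between the organ of Corti of mice lacking pejvakin and that of wild-type mice. The list named 30 genes: enzymes from acetyl-CoA to cholesterol, the SREBP regulators, a sterol carrier and the main enzymes of fatty acid synthesis. A member was measured where the platform annotation gave a probe set, the array's unit of measurement, that gene's symbol alone. By that rule 29 of the 30 were measured, among 19938 genes in all, and Acat2 had no such probe set. The samples were 3 arrays of Pjvk-/- (knockout) and 3 of Pjvk+/+ (wild-type) mice, all at postnatal day 15 and on a mixed C57BL/6J-129/Sv background, with no treatment named. The wild-type samples are spelled Pjvk-+/+ in the sample labels and Pjvk+/+ in the design text. The knockout is labelled only as Pjvk-/-, so the deficiency is not stated to be limited to any cell type. Nothing in the labels ties each sample to its own animal or pool, so the p-values rest on a spread between samples that may be technical.

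Cells build cholesterol from acetyl-CoA through mevalonate, isoprenoid phosphates, squalene and lanosterol. SREBP2, encoded by Srebf2, activates most of these genes when membranes of the endoplasmic reticulum hold little sterol, and SREBP1, encoded by Srebf1, acts more on fatty acid genes. SCAP escorts both factors to the Golgi for cleavage, and the INSIG proteins hold SCAP back when sterol is plentiful. Sterol synthesis is most active in tissue that is building membrane, such as myelinating glia, and the cochlea at this age holds both myelinated nerve fibres and the lipid-rich membranes of hair cells and supporting cells.

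Pjvk itself, the targeted gene, was lower in the knockout by 0.59 on the log2 scale (SE 0.09; limma adjusted p = 0.105). Its knockout arrays read 4.42, 4.36 and 4.21 and its wild-type arrays 4.75, 5.06 and 4.96, with no overlap. Defining markers of the tissue were measured well inside the range of the array: the mean knockout log2 signal was 7.90 for Myo7a of hair cells and 11.02 for Gjb2 of supporting cells. Array medians ran from 6.66 to 6.69 over all probe sets, below most of these markers but above every Pjvk value. All 29 measured lipid genes lay above the median mean level of the tested genes, the lowest at percentile 56.6. None lies on the chromosome of Pjvk.

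No gene of cholesterol or fatty acid synthesis passed the test between the genotypes. Of the 29, 14 read higher in the knockout, 12 lower and 3 equal, and the largest difference was 0.14 on the log2 scale, or 1.10-fold, for the sterol enzyme gene Hsd17b7. Among all genes tested 44.9% read higher and 53.8% lower. In limma, 0 of 29 passed at an adjusted p under 0.05, where 0.0351% of all genes did. None had an unadjusted p under 0.05, against 12.4% of all genes, and in none did the 3 knockout arrays separate from the 3 wild-type arrays, against 17.8% of all genes. With an intensity trend and robust priors in limma, 0 of 29 passed as well. The smallest adjusted p was 0.542 (Hsd17b7). An exact permutation test on 3 against 3 arrays cannot give a two-sided p below 0.1, so none is given by gene.

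Judged by the spread between these samples, the size of change left possible was small. The 95% intervals of limma for the 29 log2 fold changes lay between -0.27 (Cyp51) and 0.35 (Hsd17b7), which correspond to 1.21-fold lower and 1.27-fold higher in the knockout. For 15 of the 29 the interval lay within 0.2 of 0 on the log2 scale, a 1.15-fold difference either way, as it did for 30.8% of all genes. These intervals hold for each gene taken alone and are not adjusted for the number of genes. They rest on a spread between samples that may be technical, so they need not bound a difference between animals. They also depend on single arrays: without the second knockout array Hsd17b7 differed by 0.25 (SE 0.06). The intervals describe the difference in array signal, which can understate a difference in transcript number.

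**Figure D1:**
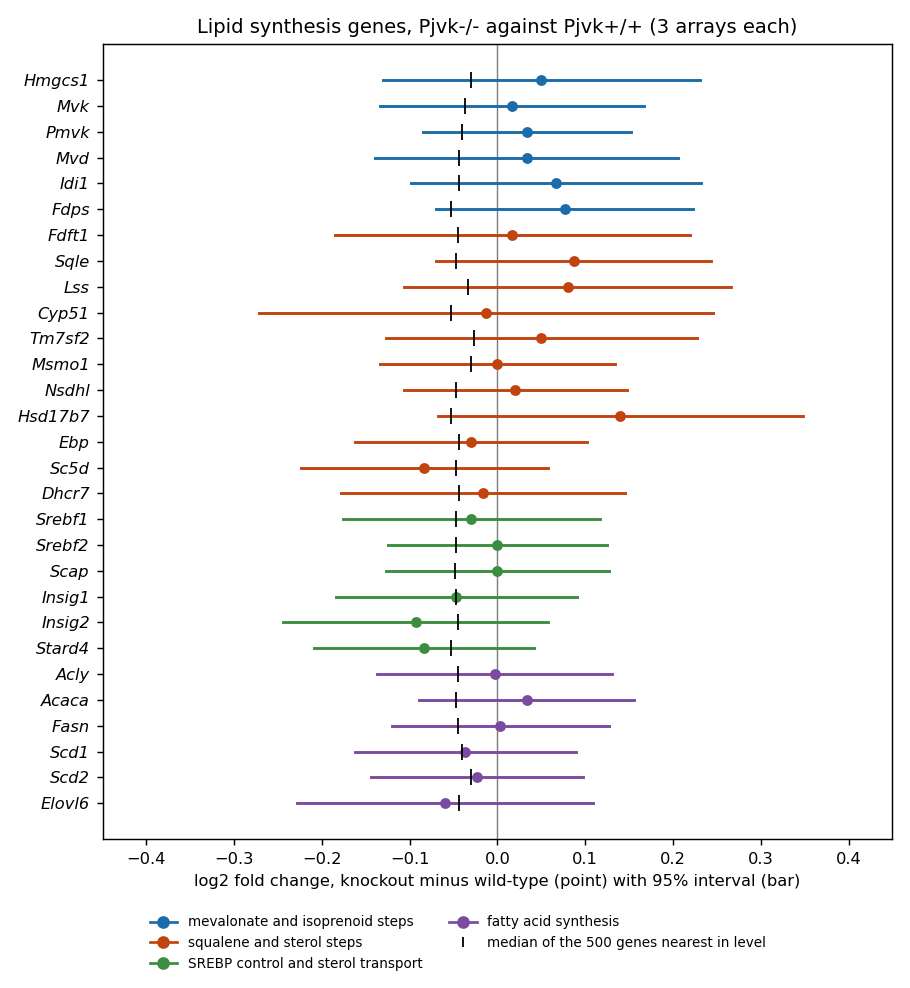
Log2 fold change (knockout minus wild-type, x axis) of the 29 measured genes (y axis, coloured by role); points are limma estimates, bars are 95% intervals and black ticks mark the median log2 fold change of the 500 genes nearest in mean level. Every bar crosses 0, and the points run from -0.09 (Insig2) to 0.14 (Hsd17b7).

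All 6 measured genes of the mevalonate and isoprenoid steps read slightly higher in the knockout, by a median of 0.04, and none passed the test. Hmgcs1, which encodes the cytosolic synthase that makes HMG-CoA, read 11.02, 10.86 and 11.16 in the knockout and 10.97, 10.92 and 11.00 in the wild-type. The knockout arrays held both the highest and the lowest value, and the difference was 0.05 (SE 0.08). Fdps, which encodes farnesyl diphosphate synthase at the branch toward sterols, prenyl groups, dolichol and ubiquinone, read 8.65, 8.54 and 8.71 against 8.50, 8.56 and 8.61, a difference of 0.08 (SE 0.06; adjusted p = 0.629). Its second knockout array lay below 2 of the wild-type arrays. Idi1, the isomerase that supplies dimethylallyl diphosphate, differed by 0.07 (SE 0.07). The kinases Mvk and Pmvk, which phosphorylate mevalonate in succession, differed by 0.02 (SE 0.07) and 0.03 (SE 0.05). Pmvk read 7.68, 7.68 and 7.72 against 7.67, 7.63 and 7.68, and only a tie at 7.68 joined its groups. Mvd, the decarboxylase that makes isopentenyl diphosphate, differed by 0.03 (SE 0.08), with its lowest value, 7.38, and its highest, 7.64, both in the wild-type. That all 6 lay on the higher side held under quantile normalization, cyclic loess and centring on array medians. A model with the mean Y-linked signal as covariate put 3 higher and 3 lower, each with a larger SE. With 1 array left out, it held only without the third wild-type array. In each other case Hmgcs1, Mvk or Mvd turned lower.

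Among the 11 genes from squalene to cholesterol, 6 read higher, 4 lower and 1 equal, with a median difference of 0.02 and no call. Hsd17b7, which encodes the keto-reductase acting in the removal of the C4 methyl groups of sterols, read 9.06, 8.73 and 9.06 in the knockout and 8.77, 8.84 and 8.82 in the wild-type. Knockout arrays 1 and 3 stood above every wild-type array and knockout array 2 below every one, so that the groups overlapped (SE 0.09; unadjusted p = 0.161). Sqle, the squalene epoxidase and a rate-controlling step, had the same shape, with 9.25, 9.05 and 9.24 against 9.08, 9.06 and 9.14 and a difference of 0.09 (SE 0.07; adjusted p = 0.610). Lss, which closes squalene epoxide into lanosterol, read 7.62, 7.38 and 7.62 against 7.43, 7.39 and 7.56, a difference of 0.08 (SE 0.08). In these 3 genes the second knockout array was the lowest of the 6.

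Cyp51, the lanosterol demethylase, had the widest spread of any member. It read 8.73, 8.33 and 8.77 in the knockout and 8.60, 8.55 and 8.72 in the wild-type, so its difference of -0.01 carried an SE of 0.11. Its knockout values spanned 0.44 on the log2 scale and its wild-type values 0.17. Sc5d, the sterol desaturase that forms 7-dehydrocholesterol, went the other way, with 9.48, 9.50 and 9.60 against 9.60, 9.55 and 9.68, a difference of -0.08 (SE 0.06; adjusted p = 0.585). The third knockout array equalled the first wild-type array. Dhcr7, the reductase that yields cholesterol, differed by -0.02 (SE 0.07), and Msmo1, the C4 methyl oxidase, had equal means of 11.12 in both genotypes (SE of the difference 0.06). Tm7sf2, a sterol reductase, differed by 0.05 (SE 0.08) and Fdft1, the squalene synthase, by 0.02 (SE 0.09). Nsdhl and Ebp, the decarboxylating dehydrogenase and the isomerase of the pathway, are X-linked and differed by 0.02 (SE 0.06) and -0.03 (SE 0.06).

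None of the regulators passed the test. Srebf2 read 9.32, 9.32 and 9.38 in the knockout and 9.29, 9.35 and 9.38 in the wild-type. Both genotypes averaged 9.34, and the 95% interval of the difference ran from -0.13 to 0.13. Srebf1 read 8.60, 8.75 and 8.78 against 8.70, 8.76 and 8.76, with an interval from -0.18 to 0.12 around a difference of -0.03. The first knockout array alone was low. Scap had a mean of 8.73 in each genotype, with an interval from -0.13 to 0.13. Transcript levels do not measure the cleavage of the SREBP proteins.

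Insig1, a strong target of SREBP and its brake, read 9.32, 9.24 and 9.37 against 9.36, 9.30 and 9.41, a difference of -0.05 (SE 0.06). Insig2, its relative that does not depend on SREBP in the same way, read 9.27, 9.17 and 9.08 against 9.32, 9.27 and 9.21, a difference of -0.09 (SE 0.07; adjusted p = 0.570). Stard4, a soluble sterol carrier, read 8.17, 8.16 and 8.25 in the knockout and 8.27, 8.25 and 8.31 in the wild-type, so that only a tie at 8.25 joined the groups, and its difference was -0.08 (SE 0.06; adjusted p = 0.544). Of these 6 control and transport genes 4 read lower and 2 equal, with a median of -0.04. Their mean deviation from each gene's average over the arrays was -0.03, -0.03 and -0.002 in the knockout and 0.02, 0.002 and 0.04 in the wild-type, without overlap. After quantile normalization or cyclic loess 3 of the 6 were higher and 3 lower.

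Of the 6 fatty acid synthesis genes 2 read higher and 4 lower, with a median of -0.01 and no call. Acly, which makes cytosolic acetyl-CoA from citrate, read 9.68, 9.63 and 9.78 in the knockout and 9.71, 9.70 and 9.69 in the wild-type and differed by -0.003 (SE 0.06). Fasn, the fatty acid synthase, read 9.66, 9.59 and 9.63 against 9.60, 9.60 and 9.67, a difference of 0.003 (SE 0.05). In both genes the knockout and wild-type means lay within 0.01 of each other. Acaca, the carboxylase that commits acetyl-CoA to fatty acids, read 9.35, 9.27 and 9.36 against 9.29, 9.29 and 9.30, a difference of 0.03 (SE 0.05). A further Acaca probe set differed by -0.08 (SE 0.09), so the sign depended on the probe set.

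The stearoyl-CoA desaturases, which place the first double bond, did not pass the test. Scd2, the form of brain and myelin, read 11.88, 11.84 and 11.91 against 11.91, 11.87 and 11.92, with an interval from -0.14 to 0.10. Scd1 read 10.50, 10.47 and 10.42 against 10.55, 10.47 and 10.48, with an interval from -0.16 to 0.09. The desaturases are close relatives, and cross-hybridization between their probes was not assessed. Elovl6, which lengthens palmitate to stearate, read 9.72, 9.60 and 9.87 against 9.76, 9.80 and 9.81 and differed by -0.06 (SE 0.07). The knockout arrays spanned 0.27 and held both extremes, while the wild-type arrays spanned 0.05. Further probe sets of Idi1 and Fdft1 differed by 0.08 (SE 0.08) and 0.01 (SE 0.08), on the same side as those used.

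Bright genes in general read slightly lower in the knockout. Of the genes tested at or above the median level, 72.1% were lower, with a median difference of -0.04. Of the 29 lipid genes 12 were lower, with a median of 0.00. The median over all genes tested was -0.01. Set against the median of the 500 genes nearest in mean level, 24 of the 29 stood above it and 4 below, by a median of 0.05. For the mevalonate to sterol steps as a whole, 16 of 17 stood above and the median offset was 0.07, against 0.01 for the control and transport genes and 0.02 for fatty acid synthesis. The genes vary together, and the offsets and counts are given as a description, without a test. Cyclic loess, which removes trends with level, put 22 of the 29 higher, with a median of 0.04 and an all-gene median near 0. Adding the Y-linked level to the model gave 11 higher and 18 lower, with a median of -0.03. That level did not overlap between the genotypes, and the estimates of this model were less precise. The SE rose from 0.08 to 0.14 for Hmgcs1 and from 0.11 to 0.20 for Cyp51.

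**Figure D2:**
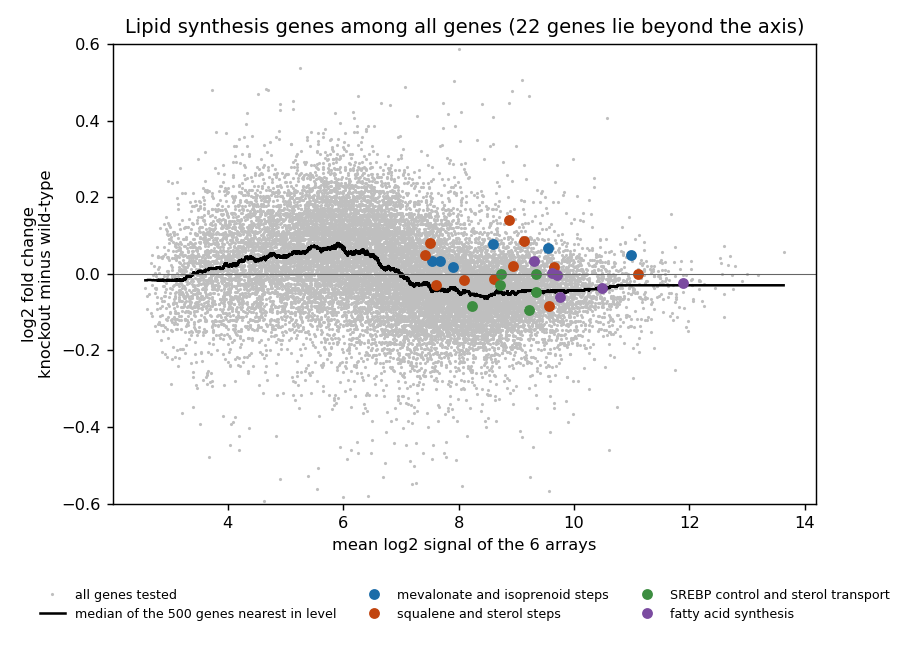
Log2 fold change (y axis, knockout minus wild-type) against the mean log2 signal of the 6 arrays (x axis) for all genes tested (grey), with the lipid genes coloured by role and the median of the 500 genes nearest in level as a black line; 22 genes lie beyond the axis. At the levels of the lipid genes the line runs below 0, and most lipid genes sit between that line and a log2 fold change of 0.14.

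The members' values differed between arrays of 1 genotype in a shared order. In 7 of the 29 the difference between genotypes was larger than the pooled SD within genotypes. The share over all genes was not computed, so this count is not read as a trait of the members. Within the knockout the second array was the single lowest in 20 of 29 genes and the third the single highest in 19, where the second was lowest in 32.4% and the third highest in 31.6% of all genes. In the squalene to cholesterol steps the second knockout array was lowest in 9 of 11, and in fatty acid synthesis in 5 of 6. The wild-type arrays showed the same kind of ordering at a smaller size: the second was lowest in 16 of 29 and the third highest in 16, against 27.6% and 28.5% of all genes. These shares are over genes of any level, and genes matched to the members in level were not compared. As a mean over the 29 genes, the signal relative to each gene's average was 0.02, -0.06 and 0.05 in the knockout and -0.01, -0.03 and 0.02 in the wild-type. The squalene to cholesterol steps spread most, with 0.05, -0.10 and 0.09 against -0.01, -0.04 and 0.02. For the squalene to cholesterol steps and for the 29 genes as a whole, the knockout arrays bracketed the wild-type arrays on both sides.

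**Figure D3:**
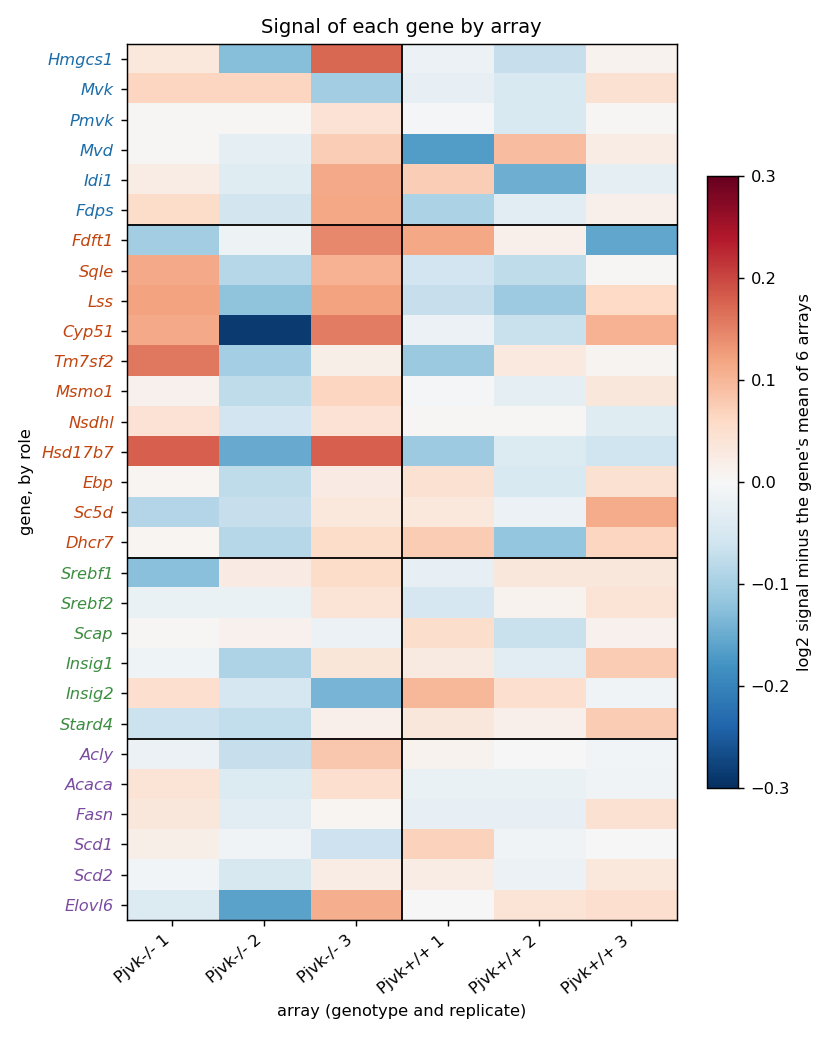
Log2 signal of each of the 29 genes (rows, by role and in the label colours of the interval plot) in each array (columns) as the difference from that gene's mean of 6 arrays; red is above and blue below, and the deepest blue is at or beyond the end of the scale. The second knockout column is blue through most sterol genes, with Cyp51 the deepest, while the columns to either side of it are mostly red.

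Genes of the sterol pathway followed this pattern to different degrees. In Cyp51 the second knockout array lay 0.42 below the mean of the other 2, a 1.34-fold gap, in Hsd17b7 0.33 or 1.26-fold, in Lss 0.24 or 1.18-fold and in Hmgcs1 0.23 or 1.17-fold. These were the 4 members with a gap of at least 0.2, which 6.20% of all genes had. After each genotype's mean was removed, the median correlation over the 6 arrays between pairs of the 11 squalene to cholesterol genes was 0.66, between pairs of all 29 members 0.47, and between pairs of every 10th gene tested 0.01. Such correlations over 6 arrays with 2 means removed are a description, and the genes were read on the same arrays. The genes used for comparison were not matched to the members in level. With the mean of the other mevalonate to sterol genes, Msmo1 and Cyp51 correlated at 0.99, Acaca at 0.97, Sqle at 0.96, Hmgcs1 at 0.95 and Insig1 at 0.92. Srebf2 correlated at 0.51, Srebf1 at -0.11, Insig2 at -0.26, Scd1 at -0.24 and Mvk at -0.50. Fdft1 at -0.06 and Scap at -0.03 were also among the members that did not share the pattern.

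Without the second knockout array 19 of the 29 read higher and 9 lower, with a median of 0.03, and no member passed the adjusted test. Hsd17b7 then differed by 0.25 (unadjusted p = 0.00462, adjusted p = 0.279 in limma), Lss by 0.16 and Sqle by 0.15 (unadjusted p = 0.0469, adjusted p = 0.427). These were the largest differences met for them in any setting, and Cyp51 turned from -0.01 to 0.13. Without the third knockout array the median was -0.02, with 13 higher and 16 lower. Over the squalene to cholesterol steps the median was 0.05 without the second knockout array and -0.03 without the third. Over the mevalonate to sterol steps as a whole it was 0.055 and 0.005, with no change of sign.

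Marker levels differed between these arrays as well. Over the 6 skeletal muscle markers the mean deviation was 0.07, 0.23 and -0.01 in the knockout and -0.11, -0.05 and -0.13 in the wild-type, highest in the second knockout array, where sterol genes were lowest. Of these muscle markers 6 of 6 read higher in the knockout, where 44.9% of all genes did. An unadjusted p under 0.05 in limma was met by 3 of the 6, against 12.4% of all genes. Myh1 and Myh4 were dim, with mean knockout log2 signals of 5.26 and 5.54 where array medians were near 6.7. Myh1 read 5.14, 5.60 and 5.05 in the knockout. Over 13 myelin markers of Schwann cells and oligodendrocytes, cells with high sterol synthesis, the mean deviation was -0.02, -0.04 and 0.12 in the knockout and -0.02, -0.05 and 0.005 in the wild-type, highest in the third knockout array, where sterol genes were highest. Mog, a gene of oligodendrocyte myelin, read 8.77, 8.39 and 9.26 in the knockout and 8.59, 8.61 and 8.53 in the wild-type. Mobp read 8.89, 8.79 and 9.48 against 8.86, 8.77 and 8.80, and Mag 9.41, 9.11 and 9.70 against 9.28, 9.21 and 9.28. Among the knockout arrays, these 3 genes, chosen after their values were seen, were highest in the third and lowest in the second, with a mean deviation of 0.50 in the third. The other 10 myelin markers had mean deviations of -0.04, 0.01 and 0.01 in the knockout and 0.003, -0.03 and 0.04 in the wild-type. Over all 13 the third knockout array was the single highest of the knockouts in 5 and the single lowest in 4, Gjc3 and Cldn19 among the latter. Pmp22, a Schwann cell myelin gene, had equal means of 12.99. In whole tissue, fewer cells of a type and less RNA per cell cannot be told apart, and the part of these cell types in the pattern of the sterol genes was not tested.

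Other marker lists are given for the same comparison. Over 9 adipocyte markers, 8 read higher and 1 lower, with overlapping mean deviations, 0.01, 0.07 and 0.01 in the knockout against -0.07, 0.03 and -0.04. The defining adipocyte genes Adipoq and Fabp4 were dim, with mean knockout log2 signals of 4.48 and 4.25 where array medians were near 6.7. Hair cell markers were higher in 6 of 9 and supporting cell markers in 7 of 10, with mean deviations that did not overlap between genotypes. The hair cell means were 0.01, 0.08 and -0.001 in the knockout against -0.03, -0.02 and -0.04. Neuronal markers were lower in 5 of 7 and macrophage markers in 4 of 6, with overlapping means. The 3 measured Y-linked genes were lower in the knockout by 0.33 to 0.40, with mean deviations of -0.09, -0.16 and -0.28 against 0.38, 0.19 and -0.02. Their part in the lipid genes' values was not tested apart from the covariate given above, and the Y-linked means of the genotypes did not overlap.

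**Figure D4:**
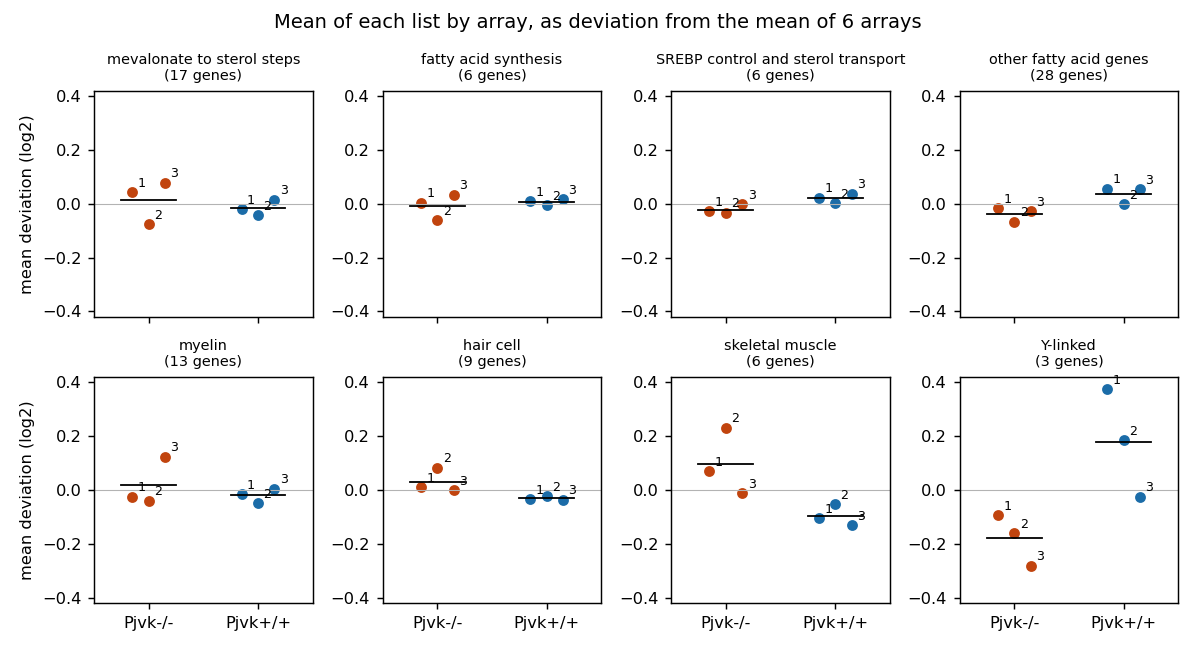
Mean deviation (y axis, log2 signal minus each gene's mean of 6 arrays) of 8 gene lists in each array, by genotype (x axis); numbers are replicate numbers and black lines are genotype means. The mevalonate to sterol genes are lowest and the skeletal muscle genes highest in knockout replicate 2, and the mean of the myelin genes is highest in knockout replicate 3, through Mog, Mobp and Mag.

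Promoter sequences are shown for the 4 genes in which the second knockout array fell furthest below the others, since these members varied together. Each stretch is the 200 bases before the RefSeq transcription start in GRCm38.p6, written 5′ to 3′ on the gene's strand. Capitals mark TCACNCCAC, letters of a sterol regulatory element, and CCAAT, letters of NF-Y, a factor that acts with SREBP at many of these promoters, each on either strand (CCAAT reads ATTGG on the other). The windows are chr5:4104698-4104897 on the minus strand, chr1:169969206-169969405 on the minus strand, chr10:76531405-76531604 on the plus strand and chr13:119690151-119690350 on the plus strand.
Cyp51: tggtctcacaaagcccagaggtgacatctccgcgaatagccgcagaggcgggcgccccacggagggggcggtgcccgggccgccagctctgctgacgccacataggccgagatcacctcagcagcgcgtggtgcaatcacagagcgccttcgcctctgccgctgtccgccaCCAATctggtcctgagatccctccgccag
Hsd17b7: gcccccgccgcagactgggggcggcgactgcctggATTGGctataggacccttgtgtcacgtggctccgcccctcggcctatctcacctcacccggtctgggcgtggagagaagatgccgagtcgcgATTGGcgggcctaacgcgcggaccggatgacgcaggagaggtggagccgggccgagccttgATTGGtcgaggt
Lss: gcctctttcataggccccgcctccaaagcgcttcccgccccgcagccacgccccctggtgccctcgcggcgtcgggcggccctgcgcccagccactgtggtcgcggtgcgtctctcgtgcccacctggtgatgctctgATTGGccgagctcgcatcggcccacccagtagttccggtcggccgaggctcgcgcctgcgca
Hmgcs1: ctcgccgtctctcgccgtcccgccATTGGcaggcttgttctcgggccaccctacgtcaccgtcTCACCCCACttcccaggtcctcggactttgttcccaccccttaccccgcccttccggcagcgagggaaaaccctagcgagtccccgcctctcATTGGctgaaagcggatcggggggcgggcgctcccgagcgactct

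Hmgcs1 held the sterol element letters as TCACCCCAC, starting at position -137 from the transcription start, between 2 sites of CCAAT letters. The Hsd17b7 stretch held CCAAT letters at 3 places and the Cyp51 and Lss stretches at 1 place each. Over windows from 250 bases before to 50 after the start, 24 of the 30 listed genes had at least 1 promoter in the table, Acat2 among them. The members are counted by gene, so shares of genes are the like measure, and shares of single promoters are lower. TCACNCCAC was found in 1 of 24 (Hmgcs1), against 1.24% of all promoters, 1.44% of all genes with a promoter and 1.27% of genes tested at or above the median level. CCAAT was found in 20 of 24 or 83.3%, against 37.4% of all promoters, 41.1% of all genes with a promoter and 42.2% of those brighter genes. GGGCGG, letters bound by Sp1, was found in 20 of 24, against 35.7%, 38.2% and 71.6% in the same order. CACGTG, a palindromic E-box, was found in 5 of 24, against 7.15%, 8.09% and 12.1%. Each was searched on both strands, none of these motifs contains another, and a gene with several starts counts once if any start has the letters. Of the members that correlated negatively with the other sterol genes, Mvk, Srebf1, Insig2 and Scap had a promoter sequence. All of these but Scap held CCAAT letters. A match is a description of the letters, and its absence says nothing of a factor's binding.

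None of the genes in the lists beside the core pathway passed the adjusted test in limma. Their shares lower are read beside the 53.8% of all genes and 72.1% of genes at or above the median level that were lower. Of 28 measured other fatty acid genes 22 were lower and 5 higher, with a median of -0.07, and 2 of them, both lower, had an unadjusted p under 0.05, as 12.4% of all genes did. The groups did not overlap in 7 of the 28, against 17.8% of all genes. Thrsp, a lipogenic regulator also known as Spot14, read 6.81, 6.70 and 6.64 in the knockout and 7.11, 7.19 and 6.99 in the wild-type. All 3 knockout arrays lay below all 3 wild-type arrays, with a difference of -0.38 (SE 0.07; adjusted p = 0.156). Hsd17b12, the reductase of the fatty acid elongation cycle, differed by -0.17 (SE 0.06; adjusted p = 0.318), and Acsl6, an acyl-CoA synthetase, by -0.11 (SE 0.05; adjusted p = 0.426), both with groups that did not overlap.

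Of the genes listed for SREBP processing and for protein degradation at the endoplasmic reticulum, 12 of 12 measured were lower. Their median was -0.04, near that of bright genes in general. Sec23a, a coat protein of vesicles leaving the endoplasmic reticulum, differed by -0.17 (SE 0.05; adjusted p = 0.309), Faf2 by -0.14 (SE 0.06; adjusted p = 0.373) and Sec24a by -0.14 (SE 0.07; adjusted p = 0.423). Of 12 genes that use isoprenoids for prenyl groups, dolichol and ubiquinone, 10 were lower and 2 higher, with a median of -0.07. Fnta, a subunit of farnesyltransferase, differed by -0.13 (SE 0.07; adjusted p = 0.446), Nus1 of dolichol synthesis by -0.11 (SE 0.06; adjusted p = 0.469) and Ggps1, which makes geranylgeranyl diphosphate, by -0.11 (SE 0.06; adjusted p = 0.497). The share of branch genes that read lower, 83.3%, stands beside 72.1% of genes at or above the median level. Set against the 500 genes nearest in level, their median offset was -0.03. The 6 genes upstream of them read slightly higher, which depended on the arrays and model used, and neither set contained a call.

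For sterol transport, efflux and esterification 12 of 20 measured genes were lower and 8 higher, with a median of -0.03. Lipa, the lysosomal acid lipase, read 8.60, 8.48 and 8.47 in the knockout and 8.71, 8.64 and 8.69 in the wild-type and differed by -0.16 (SE 0.06; adjusted p = 0.345). Nceh1, a cholesteryl ester hydrolase, also differed by -0.16 (SE 0.07; adjusted p = 0.378). Abca1, which exports cholesterol to apolipoproteins and is induced by LXR when sterol is plentiful, read 9.32, 9.12 and 9.19 against 9.08, 9.03 and 9.05, a difference of 0.16 (SE 0.06; adjusted p = 0.381). In these 3 genes the groups did not overlap, which was so for 6 of the 20 and for 17.8% of all genes.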

How the data were processed

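RNA from 6 organ of Corti samples was measured on Affymetrix mouse gene ST arrays. The authors deposited 1 table of log2 signals for 35557 probe sets, made with the Affymetrix Expression Console per the submitters' processing notes; its version, summarization, normalization and genome build are not stated there. The platform annotation gave 21789 probe sets 1 symbol and 1621 several, and 12147 are unnamed here; 21698 identifiers matched GRCm38.p6 genes, which updated symbols. The probe set with the highest mean was kept per gene. The genotype contrast was fitted in limma 3.58.1 (R 4.3.3; lmFit, eBayes; 4 residual and 4.59 prior degrees of freedom), with Benjamini-Hochberg adjustment over all 19938 genes and calls at an adjusted p under 0.05; the step was tested on simulated data. SE is the standard error of the log2 fold change. No further normalization was applied. The number of arrays limits the precision. Alternatives covered priors, dim genes, normalization, probe sets, the replicate number, the Y-linked level and leaving out each array. The members and lists were chosen with earlier results of these data known. The 30 members were named, with up to 3 genes of smallest unadjusted p from each further pathway list; marker genes, and the members given by array beyond Srebf1 and Srebf2, were chosen after their values were seen. Some genes of the pathway are not analysed here.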

Additional observations from a re-analysis of the deposited data

How the results depend on the processing

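No member was called under any of the 16 alternatives to the main analysis, and over them the smallest adjusted p was 0.279 and the log2 fold changes ran from -0.19 to 0.25. The median over the members stayed within the spread between arrays, from -0.03 with the Y-linked covariate to 0.04 with cyclic loess, and 7 members were lower with cyclic loess against 12. The number of genes called among all genes, 7, became 112 with an intensity trend and robust priors, 20 above the 25th percentile of level, 45 above the median level, 18 with centring on array medians, 1 with every probe set tested on its own, 1 with the replicate number as a block and 0 in limma with the Y-linked covariate, where 1087 genes had an unadjusted p under 0.05. It was 2 to 6 with 1 array left out: 3 without knockout array 3, and 2 without wild-type array 1 or wild-type array 2. The block of replicate number changed no call among the members. Over all genes, same-numbered arrays deviated together at correlations of 0.08, 0.02 and -0.01, so the numbers were not taken to pair the samples. The members, however, shared an order by number. Array 2 was lowest in 20 of 29 in the knockout and 16 of 29 in the wild-type, and array 3 highest in 19 and 16. With the block the SE of Cyp51 went from 0.11 to 0.08 and that of Fdft1 from 0.09 to 0.10. Whether the numbers pair the samples for these genes was not tested.

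Signs near 0 were not stable: 19 of the 29 took both signs over the alternatives, among them Msmo1, Srebf2 and Scap, whose main difference was 0. The other 10 never took the opposite sign, though Ebp was at 0 without the second knockout array. The Y-linked covariate made the SE of every member larger, 0.14 against 0.08 for Hmgcs1, so signs and calls under it rest on less precision. With the Y-linked covariate the log2 fold change turned to -0.036 for Hmgcs1, -0.13 for Mvd, -0.033 for Fdps, -0.033 for Lss, -0.0003 for Tm7sf2, 0.052 for Insig2, -0.042 for Fasn and 0.041 for Scd1. With quantile normalization the log2 fold change turned to 0.034 for Cyp51, 0.021 for Dhcr7, 0.012 for Srebf1 and 0.036 for Acly. With cyclic loess the log2 fold change turned to 0.031 for Cyp51, 0.021 for Dhcr7, 0.015 for Srebf1, 0.039 for Acly and 0.0001 for Scd1. With the mean of all probe sets the log2 fold change turned to -0.022 for Acaca. With centring the log2 fold change turned to -0.010 for Fasn. With 1 array left out, the log2 fold changes that turned ran from -0.023 to 0.13 for Hmgcs1, -0.012 to 0.073 for Mvk, -0.042 to 0.088 for Mvd, -0.057 to 0.078 for Fdft1, -0.093 to 0.13 for Cyp51, -0.017 to 0.11 for Tm7sf2, -0.078 to 0.022 for Dhcr7, -0.065 to 0.025 for Srebf1, -0.045 to 0.030 for Acly, -0.013 to 0.027 for Fasn and -0.13 to 0.0050 for Elovl6. The cause was not tested.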
